A study of Homo sapiens with 12 samples.

Results

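The genes described here encode nuclear subunits of the mitochondrial respiratory chain and ATP synthase. They were chosen by name: features of the array that the platform annotation gave to exactly 1 gene, with a symbol that begins with UQCR or ATP5, with NDUFA, NDUFB, NDUFC, NDUFS or NDUFV and a digit, or with COX, a digit and the letter A, B or C (COX5A to COX8C among those measured). Where several features named a gene, the brightest on average was kept. The pattern matched 76 names, from which 2 pseudogenes (ATP5F1EP2 and UQCRBP1) and the non-coding NDUFV1-DT were left out. The remaining 73 genes, of 18417 measured, comprised 33 of complex I, 7 of complex III, 15 of complex IV and 18 of complex V. Genes were assigned to complexes by their symbols, and the annotation added only that they are protein-coding, so it does not test the name of the set. Of those under complex V, ATP5IF1 encodes an inhibitor of the enzyme and ATP5MGL a paralog of one of its subunits.

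RNA of MDA-MB-231, a long-established human cell line from a triple-negative breast tumour, was measured on 12 one-colour Affymetrix arrays, 3 in each of 4 groups. Parental cells were either untreated or given TRAIL, a death ligand of the tumour necrosis factor family, at 100 ng per ml for 2 hours. TTR cells, a derivative of the same line that the labels describe as treated to resistance, were likewise either untreated or given the same dose for the same time. The labels do not name the agent used to obtain TTR cells, say whether the derivative is 1 clone, or say whether the 3 arrays of a group came from separate cultures, so p-values measure the spread between these arrays, which may be technical.

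The respiratory chain moves electrons from NADH and succinate to oxygen in the inner mitochondrial membrane. Complex I oxidises NADH, complex III passes electrons from ubiquinol to cytochrome c, and complex IV, cytochrome c oxidase, hands them to oxygen. All of these pump protons, and complex V, the ATP synthase, uses the resulting gradient to make ATP. The subunits come from 2 genomes: mitochondrial DNA encodes a few membrane subunits, and nuclear genes, most of them described here, encode the others. Many of their promoters are known to bind the factors NRF1, GABP, Sp1 and YY1. In the death receptor pathway that TRAIL engages, the outer mitochondrial membrane can be opened and cytochrome c released, which is a property of the proteins and not of these transcripts.

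All levels below are log2 values and all changes are differences between group means of log2 values, with the standard error (SE) of a limma fit over all genes. A gene was called higher or lower when its p-value, adjusted by Benjamini-Hochberg over all 18417 genes, was under 0.05. Over all features, the 3 arrays of parental cells with TRAIL stood apart: their correlation with the other arrays was 0.921 to 0.963, against 0.984 to 0.995 among the other arrays and 0.989 to 0.991 among themselves. The median of all features was also 0.29 higher in parental cells with TRAIL than without, and 0.11 higher in TTR cells with TRAIL than without. Levels are relative within an array, so changes are also given after centring each array on its median. Of the markers of the line, VIM lay between 11.14 and 11.86 and CD44 between 10.06 and 11.49, whereas SPARC was low at 3.85 to 4.75. The luminal markers ESR1 and CDH1 lay between 2.92 and 3.87, while KRT8 and KRT18, also on the luminal list, lay between 10.28 and 11.21.

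In parental cells, TRAIL was accompanied by lower levels of most respiratory chain transcripts. Of the 73 genes, 46 were lower, 6 were higher and 21 did not pass the test, with a median change of -0.48 (-0.77 after centring) and a range of -2.29 to 0.89. The largest fall was that of NDUFB5 of complex I, 4.88-fold, and the genes NDUFA8, NDUFA9 and NDUFV2 of complex I, ATP5F1A of complex V and UQCRC2 of complex III came next. Over all genes, 29.9% were called lower and 28.9% higher, with a median of 0.05. After centring on the array median, the share of called genes that were higher moved from 49.1% to 21.3% over all genes, and after quantile normalization to 37.9%. Fewer cells that express these genes and less of their RNA in each cell cannot be told apart in such bulk samples.

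The comparison with all genes depends on how strongly a gene is expressed. Of the 73 members, 61 lay in the third of genes with the highest mean level, above 6.35. There 41 members (67.2%) were called lower, beside 62.4% of all 6139 genes at such levels, and their median change of -0.56 stood beside -0.58 for all of those genes. At that level the members' share of falls was therefore close to that of other genes. Across genes, the mean level and the change were correlated with Pearson's r = -0.48 over the 73 members and r = -0.34 over all 18417 genes, a description only, since all genes share the same arrays. Rises were called for 4 of the 61 members (6.56%), beside 18.4% of all genes at such levels.

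**Figure D1:**
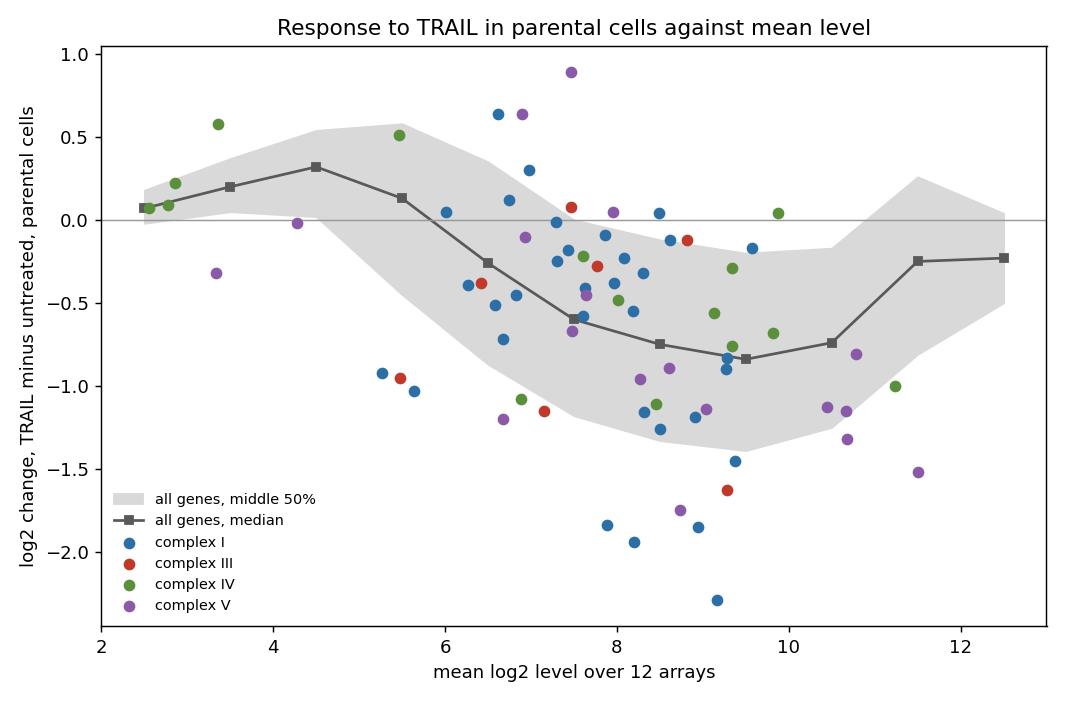
Change with TRAIL in parental cells (log2, vertical axis) against the mean log2 level over 12 arrays (horizontal axis) for the 73 members, coloured by complex. The grey band and line are the middle 50% and the median of all genes in steps of 1 log2 unit of level. Most members lie at levels where the median of all genes is below 0, and NDUFB5 at -2.29 is the lowest point.

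Complex I oxidises NADH through a hydrophilic arm and pumps protons through a membrane arm. Of its 33 measured genes, 21 were lower, 2 were higher and 10 did not pass, with a median of -0.45 (-0.75 after centring). NDUFB5, an accessory subunit of the membrane arm, read 9.93, 9.93 and 9.88 in untreated parental cells and 7.69, 7.26 and 7.93 with TRAIL. The 2 groups did not overlap, and the change was -2.29 ± 0.16 (SE, n = 3 per group, limma adjusted p = 3.46e-09). NDUFA8, an accessory subunit facing the intermembrane space, went from 8.78, 8.67 and 8.80 to 6.90, 6.63 and 6.89, a change of -1.94 ± 0.11. NDUFA9, an accessory subunit close to the quinone site, went from 9.47, 9.32 and 9.46 to 7.60, 7.51 and 7.60, a change of -1.85 ± 0.09. For both genes all TRAIL arrays lay more than 1 log2 unit below all untreated ones.

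The core subunits of complex I carry its flavin and iron-sulfur clusters and are conserved in bacteria. Of the 6 nuclear core genes measured, 4 were lower. NDUFV2, an iron-sulfur subunit of the NADH-oxidising module, read 8.44, 8.28 and 8.37 without TRAIL and 6.50, 6.29 and 6.79 with it, a change of -1.84 ± 0.13. NDUFS3 changed by -1.45 ± 0.11 and NDUFS1, which holds several iron-sulfur clusters, by -1.26 ± 0.10. NDUFV1, the flavin-binding partner of NDUFV2, changed by -0.55 ± 0.10. In contrast to these falls, NDUFS7 (0.12 ± 0.12, adjusted p = 0.38) and NDUFS8 (-0.01 ± 0.10, adjusted p = 0.955), which carry clusters near the quinone site, did not pass the test. Both had untreated and TRAIL arrays that overlapped.

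The 2 genes of complex I that were called higher were NDUFA13 and NDUFS6. NDUFA13, also known as GRIM-19, went from 6.47, 6.44 and 6.63 to 7.08, 7.36 and 7.04 without overlap, a change of 0.64 ± 0.16 (adjusted p = 0.00266). After centring its value was 0.35 and no longer passed (adjusted p = 0.0697). NDUFS6, a zinc-binding subunit, rose by 0.30 ± 0.11 with overlapping groups, and its value was 0 after centring. Among the other accessory genes, NDUFA6 (-1.19 ± 0.11) and NDUFB9 (-1.16 ± 0.13) fell, while NDUFA1, NDUFA3, NDUFB1 and NDUFB7 lay between -0.12 and 0.05 and did not pass.

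Complex III had 7 measured genes, of which 5 were lower and the other 2 did not pass, with a median of -0.38 (-0.67 after centring). UQCRC2, a core protein on the matrix side, read 9.71, 9.67 and 9.73 without TRAIL and 8.23, 7.80 and 8.19 with it, a change of -1.63 ± 0.11 (adjusted p = 2.24e-09). Its partner UQCRC1 went from 7.27, 7.30 and 7.55 to 6.34, 6.32 and 6.01, a change of -1.15 ± 0.12. UQCRH, the hinge protein that contacts cytochrome c1, changed by -0.95 ± 0.15. In each of these genes every TRAIL array lay below every untreated array. The small subunits UQCRQ (-0.12 ± 0.10) and UQCR11 (0.08 ± 0.14) had overlapping groups.

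Complex IV showed the smallest median of the 4 sets, -0.29 (-0.58 after centring), with 7 of 15 genes lower, 2 higher and 6 not passing. The sets differ in which genes they hold, and no test of a difference between complexes was made. Of the 10 genes that are not known for restriction to muscle or testis, 7 were lower, with a median of -0.62. The 5 tissue-restricted genes had a median of 0.22, so the place of complex IV among the 4 sets depends on them. COX6A1, the widely expressed form of subunit VIa, read 11.54, 11.42 and 11.63 without TRAIL and 10.64, 10.42 and 10.54 with it, a change of -1.0 ± 0.10 (adjusted p = 1.81e-07). COX7A2, the widely expressed form of subunit VIIa, changed by -1.11 ± 0.17, and COX7B by -1.08 ± 0.21. COX5B (-0.76 ± 0.11), a zinc-binding subunit, and COX5A (-0.68 ± 0.10), which lie on the matrix side of the catalytic core, also fell. COX8A, a small membrane subunit, read 9.91, 10.04 and 9.78 without TRAIL and 9.94, 9.97 and 9.94 with it, and the groups overlapped.

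Of the 5 tissue-restricted isoforms of complex IV measured here, all but COX6A2 lay below 4 in every array, where values can be background. COX7A1, the muscle form of subunit VIIa, read 3.10, 3.24 and 3.08 without TRAIL and 3.56, 3.85 and 3.77 with it, a change of 0.58 ± 0.11 (0.29 after centring). COX6A2, the muscle form of subunit VIa, read 5.07, 5.70 and 5.30 and then 5.96, 6.07 and 5.57 with overlap, a change of 0.51 ± 0.16. Its value was 0.22 (adjusted p = 0.246) after centring, and the call was also lost without replicate 1 of the untreated parental group (adjusted p = 0.0766) or replicate 2 of the parental TRAIL group (adjusted p = 0.0608). COX6B2, COX7B2 and COX8C, known from testis, had values of 0.22, 0.07 and 0.09 and did not pass. Of 6 striated muscle markers, 5 were measured, and their mean level was 4.04 to 4.25 in the untreated parental arrays, 4.48 to 4.68 in the parental TRAIL arrays, 4.07 to 4.13 in the untreated TTR arrays and 4.16 to 4.23 in the TTR TRAIL arrays. These 5 include COX7A1 and COX6A2 themselves. The other 3 had a mean of 4.02 to 4.11 in the untreated parental, 4.29 to 4.49 in the parental TRAIL, 3.95 to 4.03 in the untreated TTR and 4.06 to 4.10 in the TTR TRAIL arrays. Of these, CKM (0.46) and ACTA1 (0.49) were called higher in parental cells with TRAIL and MYH7 (-0.03) was not. COX6A2 and ACTA1 lie at mean levels between 3.87 and 6.35. There, 45.3% of all genes were called higher in parental cells with TRAIL and 24.4% lower. Below 3.87, where COX7A1 and CKM lie, 22.9% were called higher and 2.9% lower. Among luminal, blood, fibroblast and endothelium markers, FOXA1 (0.80), COL1A1 (0.65), CD14 (0.40) and CDH5 (0.33) were called higher. So were PGR (0.32), KRT18 (0.26), PTPRC (0.25) and COL1A2 (0.25). PECAM1 (-0.98) and LYZ (-0.28) were called lower, and the other measured markers of these lists did not pass. The part of the muscle markers, or of the level, in the rise of the muscle isoforms was not tested.

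Complex V had the most negative median of the 4 sets, -0.85 (-1.14 after centring), with 13 of 18 genes lower, 2 higher and 3 not passing. Its catalytic head is built of alternating alpha and beta subunits around a gamma shaft. ATP5F1A, the alpha subunit, read 9.26, 9.21 and 9.17 without TRAIL and 7.31, 7.47 and 7.61 with it, a change of -1.75 ± 0.09 (adjusted p = 2.88e-10). ATP5F1B, the catalytic beta subunit, went from 11.90, 11.91 and 11.99 to 10.56, 10.23 and 10.46, a change of -1.52 ± 0.10. ATP5F1C, the gamma subunit, changed by -1.15 ± 0.11, and its arrays did not overlap either. ATP5F1D, the delta subunit of the central stalk, had a value of 0.05 ± 0.09 and did not pass.

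Of the 4 genes of the peripheral stalk, which holds the head still while the rotor turns, 3 were lower. ATP5PB, subunit b, changed by -1.20 ± 0.09, ATP5PD, subunit d, by -0.89 ± 0.12 and ATP5PO, the subunit known as OSCP, by -0.67 ± 0.11. ATP5PF, a coupling factor, had a value of -0.10 ± 0.12 and did not pass. The rotor ring is made of subunit c, whose mature protein is encoded by 3 genes that differ in their import sequences. ATP5MC1 went from 11.08, 10.86 and 10.88 to 9.90, 9.33 and 9.62, a change of -1.32 ± 0.12. ATP5MC2 went from 7.82, 7.65 and 7.75 to 7.40, 7.21 and 7.25, a change of -0.45 ± 0.09 that missed the threshold after quantile normalization (-0.21, adjusted p = 0.058). ATP5MC3 read 4.37, 4.0 and 4.41 and then 4.31, 4.28 and 4.12, with overlap. The difference between these 3 genes in their response was not tested.

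Of the other membrane subunits of complex V, ATP5MF, ATP5MG, ATP5MJ and ATP5MK changed by -1.14, -1.13, -0.96 and -0.81. ATP5ME, subunit e, which takes part in the dimerisation of the enzyme, went the other way. Its arrays read 7.25, 7.17 and 7.26 without TRAIL and 8.16, 8.32 and 7.87 with it, without overlap. Its change of 0.89 ± 0.13 (adjusted p = 1.23e-05; 0.60 after centring) was the highest of all 73 members. ATP5IF1, the inhibitor that blocks the reverse, ATP-consuming reaction, read 6.50, 6.64 and 6.61 and then 7.17, 7.36 and 7.16, a change of 0.64 ± 0.10 (0.35 after centring). Over all complexes, 47 of the 52 called members had untreated and TRAIL arrays that did not overlap. The same share over all called genes was not computed, so this count describes the calls and not a trait of the members.

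**Figure D2:**
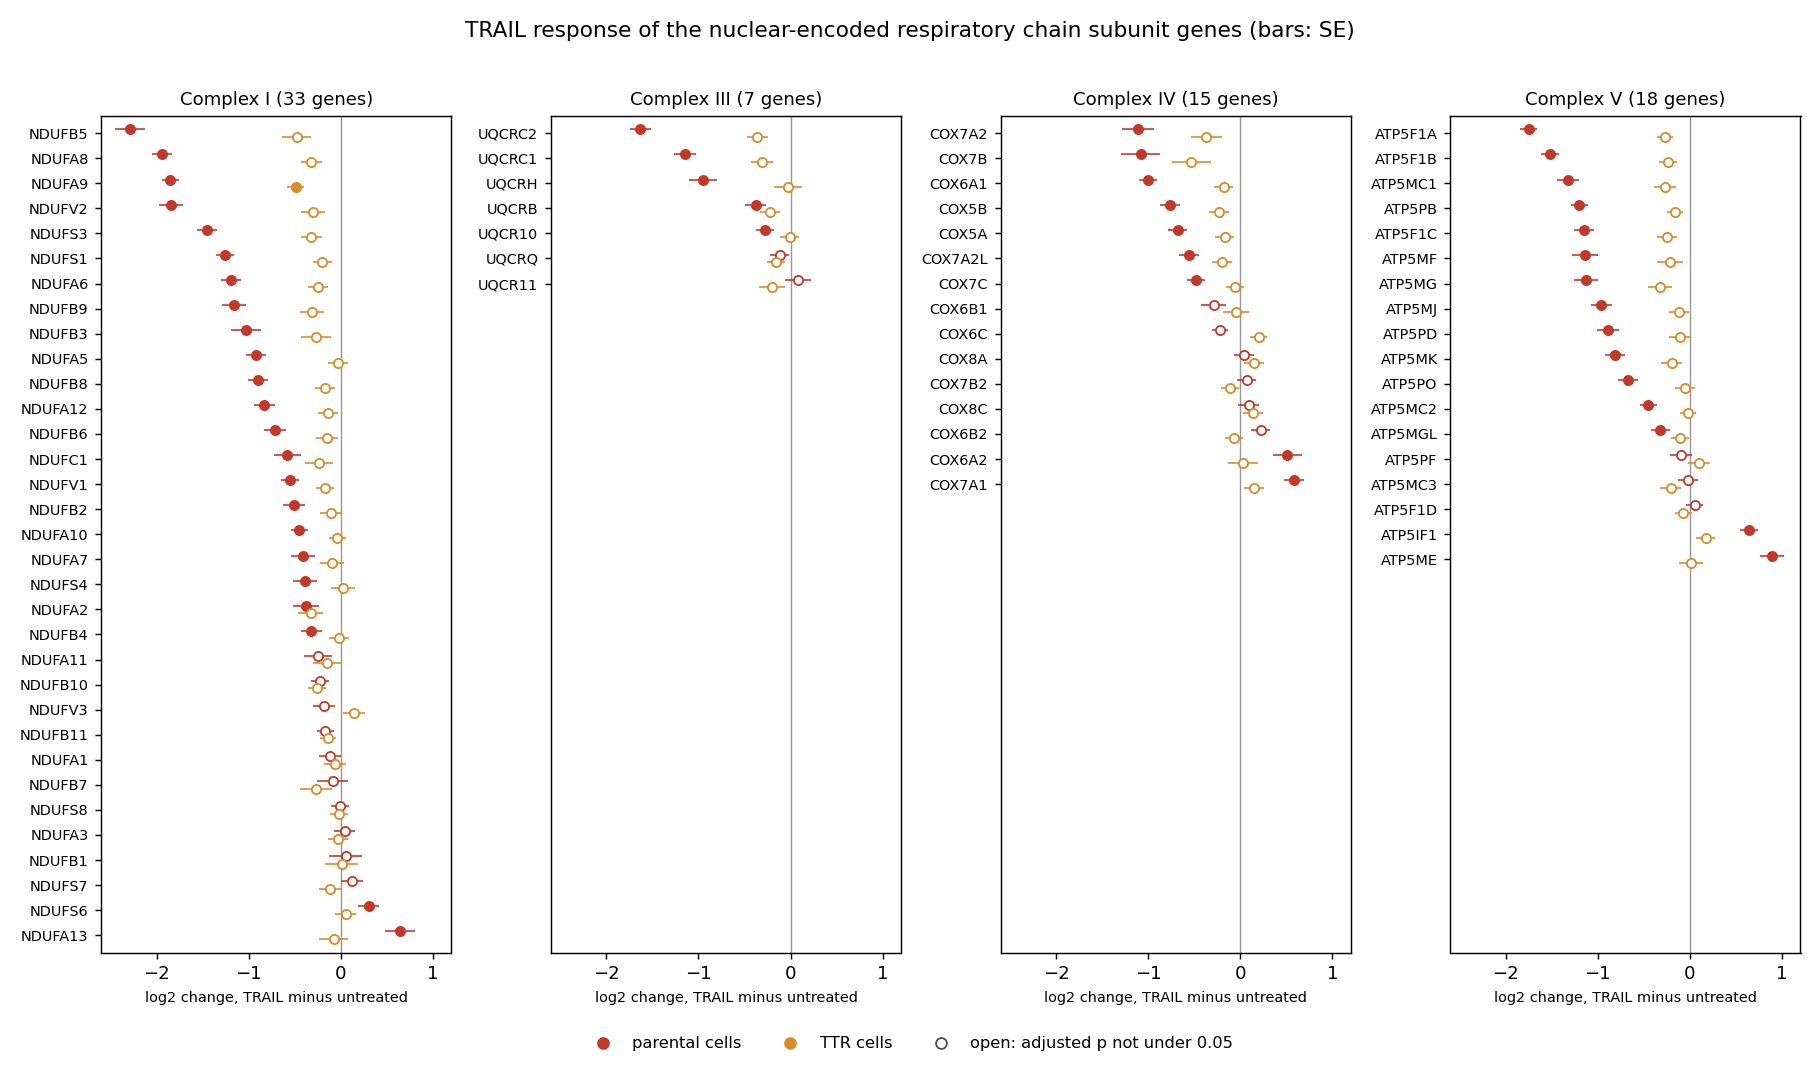
Change with TRAIL (log2, TRAIL minus untreated) of every member in parental and in TTR cells, one panel per complex, with SE bars. Filled points passed the adjusted threshold. In parental cells 46 genes were lower and 6 higher, whereas in TTR cells NDUFA9 alone is filled.

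**Figure D3:**
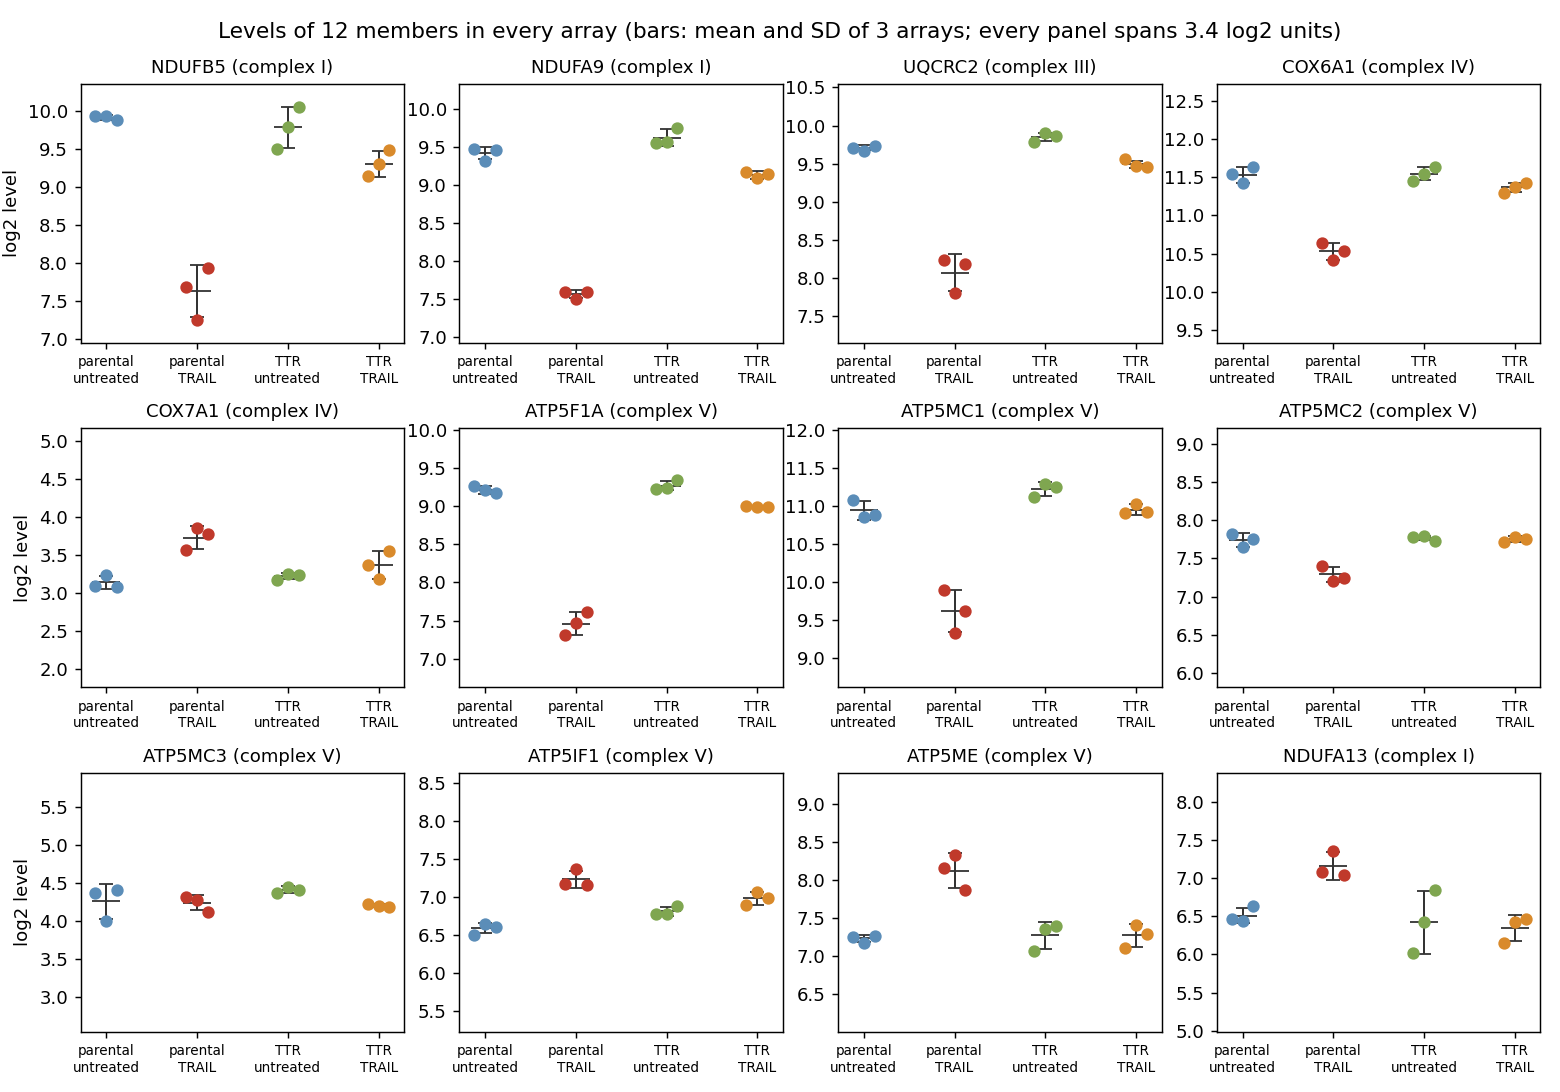
Log2 levels of 12 members in each of the 12 arrays, with the mean and SD of the 3 arrays of a group. The parental TRAIL arrays of NDUFB5, NDUFA9, UQCRC2, COX6A1, ATP5F1A, ATP5MC1 and ATP5MC2 lie below the other groups, those of ATP5ME, ATP5IF1 and NDUFA13 lie above them, and those of ATP5MC3 overlap the untreated parental ones.

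In TTR cells the same dose of TRAIL left the respiratory chain transcripts close to their untreated level. The median change of the members was -0.15 (-0.25 after centring) with a range of -0.53 to 0.20, and 61 of 73 members lay below 0. Over all genes the median was -0.01 (-0.11 after centring), and 9477 of 18417 lay below 0. In the third of genes with the highest level, the median was -0.17 for the members and -0.10 for all genes. By the limma fit 1 member was called, NDUFA9, which went from 9.55, 9.57 and 9.75 to 9.17, 9.09 and 9.14, a change of -0.49 ± 0.09 (adjusted p = 0.00491). At an unadjusted p under 0.05 there were 18 members (24.7%), all lower, beside 20.6% of all genes, 8.61% higher and 12% lower. Over all genes, 3.27% were called higher and 2.55% lower in this comparison, and after centring the share of called genes that were higher moved from 56.2% to 18.7%.

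The number of members called in TTR cells depended on the fit. Same-numbered arrays with and without TRAIL deviated together in TTR cells (correlations of 0.322, 0.146 and 0.395), so the numbers were taken to pair them there. With the replicate number as a block and only the compared groups in the fit, 12 members (16.4%) were called, beside 14.5% of all genes in that fit. With the block and all arrays it was 2 members (2.74%), beside 8.51% of all genes. Without replicate 1 of the untreated TTR group 6 members were called, beside 4.1% of all genes called higher and 3.74% called lower. Among the members not called, COX7B (-0.53 ± 0.21, adjusted p = 0.152), NDUFB5 (-0.48 ± 0.16, adjusted p = 0.0905), COX7A2 (-0.37 ± 0.17) and UQCRC2 (-0.36 ± 0.11, adjusted p = 0.0642) had the lowest values. ATP5ME, the gene with the highest change in parental cells, had a value of 0.01 ± 0.13 in TTR cells, with arrays of 7.06, 7.35 and 7.39 and then 7.11, 7.41 and 7.29.

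Of the 46 members that were lower in parental cells, 45 also lay below 0 in TTR cells and 46 lay nearer to 0 there. Their median change was -0.94 in parental and -0.20 in TTR cells. These 46 were picked by their falls in the parental arrays, which favours smaller changes in the other line. The same figures over all genes called lower were not computed. The test of the difference between the lines' TRAIL effects, coded as the TTR effect minus the parental effect, passed for 40 members, 36 positive and 4 negative, with a median of 0.41 (0.59 after centring and 0.19 after quantile normalization). Over all genes 22.9% were positive and 14.3% negative in this test, and in the third of genes with the highest level 53.5% were positive, beside 54.1% of the members there. After centring, the share of all called genes that were positive moved from 61.6% to 80.9%. By complex, 15 of 33 genes of complex I, 3 of 7 of complex III, 6 of 15 of complex IV and 12 of 18 of complex V were positive. This test uses the same parental arrays as the comparison above and is not independent of it.

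The differences with the smallest p-values in each complex lay in the genes already named. In complex I they were NDUFA8 (1.62 ± 0.16, adjusted p = 1.49e-06), NDUFA9 (1.36 ± 0.13) and NDUFV2 (1.54 ± 0.18). In complex V they were ATP5F1A (1.48 ± 0.13, adjusted p = 1.00e-06), ATP5F1B (1.28 ± 0.14) and ATP5PB (1.04 ± 0.13). UQCRC2 differed by 1.27 ± 0.15 and COX6A1 by 0.82 ± 0.14. The 4 negative differences were those of ATP5ME (-0.88 ± 0.18), NDUFA13 (-0.72 ± 0.23), ATP5IF1 (-0.47 ± 0.13) and COX7A1 (-0.44 ± 0.15), each of which was called higher with TRAIL in parental cells. After centring the differences of ATP5IF1 (-0.29, adjusted p = 0.113) and COX7A1 (-0.25, adjusted p = 0.234) no longer passed. Counting all alternatives, the call of COX7A1 was lost in 11 of 18 and that of ATP5IF1 in 2 of 19.

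Without TRAIL the 2 lines had similar levels of these transcripts. The median of TTR minus parental cells was 0.05 with a range of -0.49 to 0.38, and limma called 1 member, NDUFA6, an accessory subunit of complex I. NDUFA6 read 9.13, 8.95 and 9.15 in parental and 9.23, 9.57 and 9.58 in TTR cells without overlap, a difference of 0.38 ± 0.11 (adjusted p = 0.0471). This call was lost with 1 array left out in 5 of 6 cases, with adjusted p from 0.0739 to 0.19. Those were any of the 3 untreated parental replicates and replicates 2 and 3 of the untreated TTR group. The call of NDUFA6 was also lost with only the compared groups in the fit, with or without the replicate block. UQCRH, at 6.08, 6.08 and 5.75 in parental and 5.28, 5.58 and 5.59 in TTR cells, had the most negative difference (-0.49 ± 0.15, adjusted p = 0.053). Of all genes 3.64% were called higher and 3.47% lower in TTR cells, and 8 members (11%) reached an unadjusted p under 0.05, beside 18.9% of all genes.

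**Figure D4:**
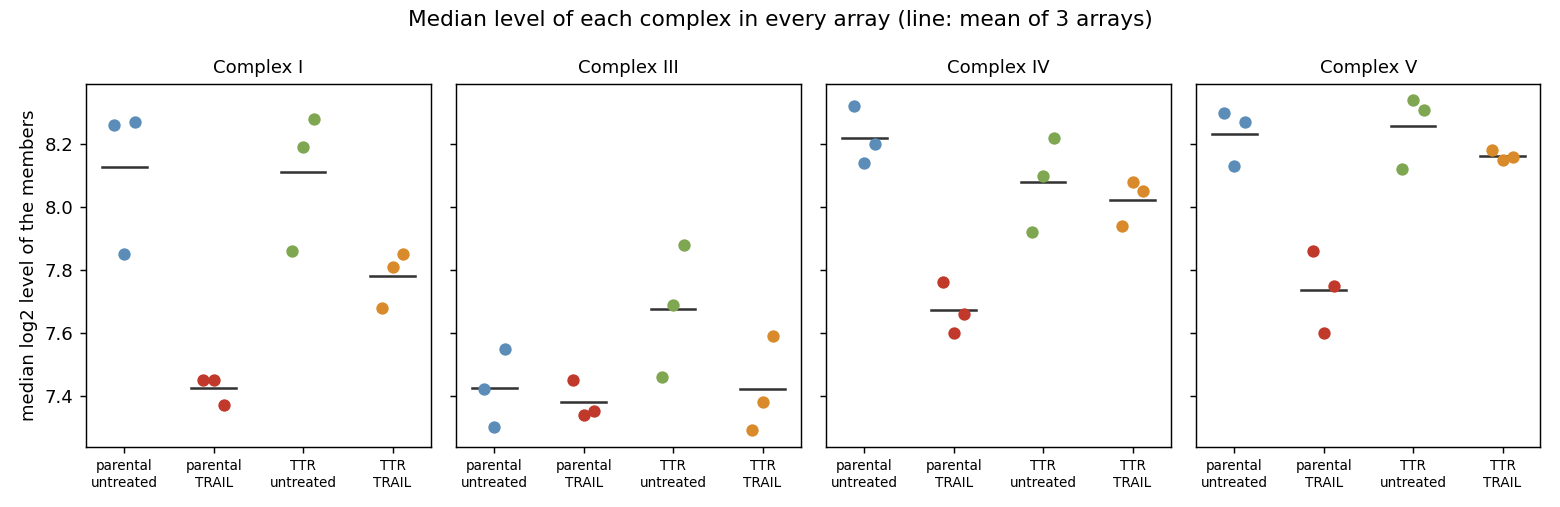
Median log2 level of the members of each complex in every array, with the mean of the 3 arrays of a group as a line. In complexes I, IV and V the parental TRAIL arrays lie below the arrays of the other groups, between 7.37 and 7.86, and in complex III they overlap the untreated parental arrays.

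With TRAIL present, TTR cells had higher levels than parental cells for 45 members and lower levels for 6, with a median of 0.46 (0.66 after centring and 0.28 after quantile normalization). Over all genes 28.0% were called higher and 26.4% lower, and in the third with the highest level 59.4% of all genes and 65.6% of the members were higher. After centring, the share of all called genes that were higher moved from 51.6% to 74.1%. NDUFB5 differed most, at 7.69, 7.26 and 7.93 in parental and 9.14, 9.30 and 9.48 in TTR cells, a difference of 1.68 ± 0.16 (adjusted p = 1.75e-07). ATP5F1A, at 7.31, 7.47 and 7.61 against 9.0, 8.99 and 8.99, differed by 1.53 ± 0.09. Among the 6 lower genes were ATP5ME (-0.84 ± 0.13) and NDUFA13 (-0.81 ± 0.16). The call of ATP5IF1 (-0.25 ± 0.10, adjusted p = 0.0374) was lost in 8 of 15 alternatives, among them centring (-0.05). This comparison shares its parental TRAIL arrays with the first one.

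Subunits of the chain that the naming rule does not cover were measured too. Complex II, which has no proton pump and links the citric acid cycle to the chain, was represented by 3 genes. All 3 were lower in parental cells with TRAIL, beside 29.9% of all genes. SDHC, a membrane anchor that holds its haem, read 10.28, 10.20 and 10.28 without TRAIL and 8.01, 7.61 and 8.05 with it, a change of -2.36 ± 0.11 (adjusted p = 9.10e-11). SDHD changed by -0.66 ± 0.11 and SDHA, the flavoprotein, by -0.35 ± 0.10, which did not hold after quantile normalization (-0.08, adjusted p = 0.501). CYCS, cytochrome c itself, went the other way, from 7.16, 6.98 and 6.80 to 7.88, 8.42 and 8.49, a change of 1.28 ± 0.15 (0.99 after centring). In TTR cells CYCS had a value of 0.37 ± 0.15 and did not pass (adjusted p = 0.172). The difference between the lines passed for CYCS (-0.91 ± 0.22, adjusted p = 0.0032). SDHC was called lower in TTR cells too (-0.46), beside 2.55% of all genes, and that call was lost in 5 of 16 alternatives.

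NDUFAB1, the acyl carrier protein that is also a subunit of complex I, changed by -1.79 ± 0.14 in parental cells. CYC1, cytochrome c1 of complex III, changed by -0.95 ± 0.16 and COX4I1, the common form of subunit IV of complex IV, by -0.88 ± 0.11. COX4I2, its lung form, was low (3.72 to 4.64), and its value of 0.25 ± 0.13 did not pass. None of the 13 mitochondrially encoded subunits was matched to a feature of 1 gene (0 of 13), so the mitochondrial part of the same complexes was not analysed here. Also not analysed here were NDUFA4, NDUFA4L2 and UQCRFS1, and the features of NDUFS5, NDUFC2 and ATP5F1E name several genes.

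Assembly factors are proteins that build the complexes without staying in them. In parental cells with TRAIL, 38 of 49 were lower and 2 higher, with a median of -0.72 (-1.01 after centring). Over all genes, 29.9% were called lower and 28.9% higher, and in the third with the highest level 62.4% were lower. The assembly factors were not split by level. TIMMDC1, a complex I assembly factor, changed by -2.32, and ACAD9, another, went from 8.33, 8.32 and 8.21 to 6.76, 6.51 and 6.80, a change of -1.59 ± 0.10. BCS1L, which inserts the Rieske protein into complex III, changed by -1.40 ± 0.11 in parental cells and by -0.51 ± 0.11 in TTR cells (adjusted p = 0.0149). In TTR cells 3 of the 49 were lower, beside 2.55% of all genes. The other 2 of these, FOXRED1 and NDUFAF5, both act on complex I. All 3 calls were lost without replicate 3 of the untreated TTR group or replicate 2 of the TTR TRAIL group, with adjusted p between 0.0747 and 0.179, and FOXRED1 and NDUFAF5 also without replicate 2 of the untreated TTR group or replicates 1 or 3 of the TTR TRAIL group.

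Regulators of these genes did not move as one group, with 5 of 12 lower, 4 higher and 3 not passing in parental cells. Both subunits of GABP, an ETS-family factor, were lower. GABPB1 went from 7.92, 7.85 and 7.92 to 6.20, 5.68 and 6.24, a change of -1.86 ± 0.13, and GABPA changed by -1.26 ± 0.13. TFB2M, a factor of mitochondrial transcription, changed by -1.09 ± 0.12, whereas POLRMT, the mitochondrial RNA polymerase, changed by 0.62 ± 0.13 (0.33 after centring). NRF1 had a value of 0.22 ± 0.11 and did not pass (adjusted p = 0.0823). YY1 rose by 0.31 ± 0.10 on the deposited scale, with a value of 0.02 after centring. Of 6 carriers and channels, which move ATP, phosphate and metabolites across the mitochondrial membranes, 5 were lower and SLC25A4, an ADP/ATP carrier, was higher (1.37 ± 0.10, 1.08 after centring), while SLC25A5, a second ADP/ATP carrier, changed by -0.81 ± 0.09. Of all genes, 29.9% were called lower and 28.9% higher in parental cells with TRAIL. Without TRAIL, TFB2M and 2 of the 49 assembly factors, SCO1 and BCS1L, were called lower in TTR than in parental cells. Of all genes, 3.47% were called lower in that comparison. The call of BCS1L was lost in 6 of 16 alternatives, and those of TFB2M and SCO1 in 0 of 16.

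Promoter windows, reaching from 250 bases before to 50 bases after the start of each gene on RefSeq's GRCh38.p14, were matched for 63 of the 73 members. The letters GCGCATGCG, the core of the NRF1 site, were present on either strand in 9 member windows (14.3%), beside 2.82% of the windows of tested genes and 1.92% of all windows. CCGGAAGT, an ETS site of the kind that GABP binds, was present in 9 (14.3%, beside 6.38% of tested genes and 4.14% of all windows), and AAGATGGCG, a YY1 site, in 7 (11.1%, beside 2.87% and 1.75%). GGGCGG, the Sp1 box, was present in 38 members (60.3%), beside 60% of tested genes and 45% of all windows. Matches of different motifs overlapped in 0 member windows. A match is a description of the letters and does not show that a factor binds there.

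The stretches below show the NRF1 letters in capitals in 3 genes that differ in their response to TRAIL and the YY1 letters in capitals in NDUFA9, the only member called in TTR cells. NDUFA8 (chr9:122159750-122159929, minus strand) and ATP5F1C (chr10:7788027-7788206, plus strand) fell in parental cells, by 1.94 and 1.15 on the log2 scale. ATP5ME (chr4:674247-674426, minus strand) rose by 0.89, and NDUFA9 lies at chr12:4648964-4649143 on the plus strand. Each is 180 bases of RefSeq sequence, 5′ to 3′ on the strand of the gene, and ends shortly after the start.
NDUFA8: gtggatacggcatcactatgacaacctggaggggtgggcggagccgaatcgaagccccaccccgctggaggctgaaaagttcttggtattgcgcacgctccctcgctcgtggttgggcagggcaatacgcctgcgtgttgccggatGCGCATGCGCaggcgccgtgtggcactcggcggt
ATP5F1C: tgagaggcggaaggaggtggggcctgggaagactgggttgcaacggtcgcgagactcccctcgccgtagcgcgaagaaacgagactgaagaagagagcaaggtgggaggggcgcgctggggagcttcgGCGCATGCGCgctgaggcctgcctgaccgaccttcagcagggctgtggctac
ATP5ME: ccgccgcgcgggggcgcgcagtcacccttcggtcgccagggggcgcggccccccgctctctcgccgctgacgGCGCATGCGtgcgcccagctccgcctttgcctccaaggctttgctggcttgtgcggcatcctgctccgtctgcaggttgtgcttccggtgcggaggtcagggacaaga
NDUFA9: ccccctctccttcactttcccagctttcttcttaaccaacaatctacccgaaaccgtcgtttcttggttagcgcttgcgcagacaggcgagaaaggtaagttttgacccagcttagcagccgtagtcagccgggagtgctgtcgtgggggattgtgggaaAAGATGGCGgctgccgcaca
In NDUFA8 and ATP5F1C the capitals form a palindrome of 10 bases, which begins 4 and 22 bases before the start. In ATP5ME the 9 capitals begin 78 bases before the start, and in NDUFA9 they begin 10 bases after it.

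The other 6 member windows with the NRF1 letters are given around the match, to show that the same core stands in genes that fell, rose or did not pass. NDUFB4 (chr3:120596151-120596211, plus strand) changed by -0.32, COX6A1 (chr12:120437873-120437923, plus strand) by -1.0 and ATP5MC2 (chr12:53676098-53676148, minus strand) by -0.45, all 3 called lower. NDUFS6 (chr5:1801337-1801392, plus strand) changed by 0.30 and was called higher. NDUFS7 (chr19:1383807-1383862, plus strand) at 0.12 and ATP5PF (chr21:25735144-25735199, minus strand) at -0.10 did not pass.
NDUFB4: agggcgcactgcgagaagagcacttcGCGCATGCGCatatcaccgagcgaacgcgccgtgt
COX6A1: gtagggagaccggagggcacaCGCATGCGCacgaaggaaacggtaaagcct
ATP5MC2: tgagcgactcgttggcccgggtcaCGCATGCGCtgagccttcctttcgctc
NDUFS6: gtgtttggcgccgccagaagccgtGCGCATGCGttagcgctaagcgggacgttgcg
NDUFS7: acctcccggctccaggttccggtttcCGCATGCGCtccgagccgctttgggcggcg
ATP5PF: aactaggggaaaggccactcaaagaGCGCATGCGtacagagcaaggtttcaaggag
Of the 9 members with the NRF1 letters, 5 were lower and 2 higher with TRAIL in parental cells, with a median of -0.32. Of the 54 members without them, 35 were lower and 3 higher, with a median of -0.56. Over all tested genes the shares called lower were 47.9% with and 32% without these letters. With the ETS letters 5 of 9 members were lower, beside 52% of tested genes with them, and with the YY1 letters 5 of 7, beside 51.7%. No test was made of these splits.

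Some members had more than 1 feature, 5 in all. The second features of NDUFV2, COX6A1 and ATP5MK changed by -1.91, -0.98 and -0.73 with TRAIL in parental cells, beside -1.84, -1.0 and -0.81 for the features kept. Both features of NDUFB4 held identical values. The second feature of NDUFS4, an accessory subunit of complex I, was low (3.01 untreated) and had a value of 0.27, against -0.39 for the one kept, so the direction of NDUFS4 depends on the feature.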

How the data were processed

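The authors deposited log2 values that, per the submitters' processing notes, were made with RMA in Affymetrix Power Tools, whose version and settings the sources used here do not give. Array medians of all features ran from 4.24 to 4.61. Of 33252 features, 19460 named 1 gene in the platform annotation, 1754 named several and 12038 were not named. Keeping the feature with the highest mean gave 18417 genes, with no filter on low values.

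One limma 3.58.1 model in R 4.3.3 (lmFit, eBayes) held all 12 arrays, with 4 group means, no block, 8 residual degrees of freedom and 7.87 prior ones. It gave two-sided p-values, adjusted by Benjamini-Hochberg over all genes at a threshold of 0.05. The fit was tested on simulated data. Replicate numbers were checked as pairs by the correlation of deviations from group means, which exceeded 0.1 in every pair only for TRAIL in TTR cells. A tag in the sample descriptions differs between the lines, so what it marks and the line cannot be told apart.

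The members and lists were chosen with earlier results of these data known, and the groupings by role were formed after the values were seen. Named genes were the 8 largest rises and falls among called members without overlap per comparison, the 3 smallest p-values per complex for the difference between lines, core subunits and isoform sets, and up to 4 genes of each other list. Other genes named, such as NRF1, YY1 and most of the members cited as not passing, were chosen after their values were seen. Alternatives were median centring, quantile normalization, all features averaged, the dimmest genes (the third by mean level) left out, only the compared groups, the parental TRAIL arrays left out, array weights, a replicate block, a 2-fold minimum and each array left out. Plots were made in Python 3.11.15 with matplotlib 3.10.9.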

Additional observations from a re-analysis of the deposited data

Results flagged for a closer look

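Members whose response to TRAIL differed between the lines were singled out by the test of the difference itself, and there were 40 of them by the limma fit. For each complex the 3 with the smallest p-value are given, as the TTR effect minus the parental effect on the log2 scale. In complex I the differences were 1.62 for NDUFA8, 1.36 for NDUFA9 and 1.54 for NDUFV2. In complex III they were 1.27 for UQCRC2, 0.84 for UQCRC1 and 0.92 for UQCRH. In complex IV they were 0.82 for COX6A1, 0.51 for COX5A and 0.53 for COX5B, the last of which was 0.35 and did not pass after quantile normalization (adjusted p = 0.112). In complex V they were 1.48 for ATP5F1A, 1.28 for ATP5F1B and 1.04 for ATP5PB. All 12 changes in parental cells were falls, and for the same 12 genes the change in TTR cells lay between -0.49 for NDUFA9 and -0.03 for UQCRH.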

How the results depend on the processing

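Of the called genes named by the rules given above, none changed direction under any alternative run. Called genes named for other reasons, such as NDUFS6 and YY1, were not followed through all the alternatives. A count can stay the same while the genes in it change. With only the compared groups in the fit, 1 member was called for TTR against parental cells without TRAIL, but it was not NDUFA6. After centring, 0 called members but 9 of those not passing for TRAIL in parental cells changed sign, and the median of all genes there went from 0.05 to -0.24 (-0.06 after quantile normalization). For TTR against parental cells with TRAIL it went from -0.07 to 0.14 after centring. For TRAIL in parental cells, 52 members were called and the count stayed between 46 and 53 with 1 array left out, was 52 with the replicate block and all arrays and 51 with the block and only the compared groups, 61 after centring, 48 after quantile normalization and 20 once a 2-fold size was required. Its median moved from -0.48 to -0.77 after centring, with or without the block, an alternative chosen after seeing the data. In TTR cells, where the numbers pair the arrays, the count was 1, and it was 12 after centring, 2 with only the compared groups, 4 without the parental TRAIL arrays, 19 with array weights, 2 with the block and all arrays, 12 with the block and only the compared groups, 19 with centring and the block, 0 with at least 2-fold, and 1 to 6 with 1 array left out. The share of all genes called in TTR cells was 13% after centring, beside 16.4% of the members. With array weights it was 17.4% beside 26%, and with centring and the block 16.5% beside 26%. Without the parental TRAIL arrays 3.98% of all genes were called higher and 5.3% lower. The median change of the members in TTR cells was -0.25 after centring, with or without the block. For TTR against parental cells without TRAIL the count of 1 became 0 with at least 2-fold, 2 without the dimmest genes, 2 without the parental TRAIL arrays, 2 with array weights and 0 to 2 with 1 array left out. With TRAIL the count of 51 became 15 with at least 2-fold, and the median became 0.66 after centring, with or without the block, and 0.28 after quantile normalization. The difference between the TRAIL effects went from 40 to 11 members with at least 2-fold, and its median became 0.59 after centring, with or without the block, and 0.19 after quantile normalization. The block changed no other count by over 1.5 times. The cause of these shifts was not tested. No detection call was used, so low levels can be background, and 3 arrays per group limit the precision.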

Other observations

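Chromosome 19 carries 11 of the members, more than any other chromosome. With TRAIL in parental cells 1 of the 11 was lower and 2 were higher, with a median of 0.05. Of the tested genes on that chromosome 15.3% were lower, with a median of 0.23. No test of position was made.

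The genes whose levels over the 12 arrays were most like the mean of the complex I members, outside the set, were PSMB7 (Pearson's r = 0.996), FIBP (0.996), TST (0.990), HDAC3 (0.989) and HSD17B10 (0.989). PSMB7 encodes a proteasome subunit and HDAC3 a histone deacetylase. Their changes with TRAIL in parental cells were -0.89, -0.78, -1.66, -1.18 and -1.08. The 12 arrays fall into groups, so these correlations describe the order of the group means and carry no p-value.

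GC content of the member promoter windows had a median of 59.3%, beside 63% for tested genes. Across the 63 members it was only weakly related to the change with TRAIL in parental cells (r = 0.13), and across 14239 tested genes r was -0.03, in both cases a description across genes that share the same arrays.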
